A study of Mus musculus with 36 samples.

Results

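The genes that encode the conjugating enzymes glutathione S-transferase (Gst), UDP-glucuronosyltransferase (Ugt) and cytosolic sulfotransferase (Sult) were followed in mouse liver on 2 restricted diets. Members were all genes in the authors' liver gene tables whose symbol is Gst with a class letter (a, k, m, o, p, t or z) and a digit, Ugt followed by 1, 2 or 3, or Sult followed by a digit, with pseudogene names left out. The rule found 45 genes among 12831 in the liver tables: 20 Gst, 17 Ugt and 8 Sult genes. Of these, 44 stood in all 3 liver comparisons, and Sult1e1 stood only in the comparison of the restricted diets with each other. GENCODE M21 names 64 protein-coding genes of this pattern in the mouse, and the other 19 were not analysed here. The rule reads gene names alone, though the families were picked with results of these data known.

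The mice were C57BL/6J, with no transgene, drug or other allele named, and spent 16 weeks on 1 of 3 diets. Controls ate ad libitum (AL), mice of another group were calorie-restricted (CR), and the remaining mice were time-restricted with no calorie restriction (TR, TR.al in the labels). The labels do not give the degree of restriction, the feeding hours, the age at the start or the sex of the mice. Liver and inguinal white adipose tissue (iWAT, a fat depot under the skin) gave 6 libraries for each diet, 36 in all, and TR was set beside CR to ask whether fasting alone gives the response of a CR diet. The deposited files hold only comparisons of groups: library depth, each library's level and the spread among libraries are unknown here. Nothing in the labels says at what hour, or how long after the last meal, the tissues were taken, and diet and time since feeding cannot be told apart. In bulk tissue, fewer cells of a type and less RNA per cell cannot be told apart either.

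These enzymes attach a water-soluble group to a reactive or fat-soluble molecule so that it can leave the cell in bile or urine. Gst enzymes use glutathione, Ugt enzymes use a nucleotide sugar, usually UDP-glucuronate, and Sult enzymes use the sulfate donor PAPS. The liver is a main site of all of them, and its hepatocytes also use them on their own products, such as bilirubin, bile acids, steroid hormones and aldehydes from oxidized lipids. Known controls of these genes include NRF2, which answers electrophiles, the nuclear receptors CAR and PXR, and the aryl hydrocarbon receptor AHR.

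The genes came from clusters of related copies, and the stretches before the RefSeq start of transcription are shown for members of the Gst alpha, Gst mu, Ugt1a and Ugt3a clusters on which the results turn. Each is the 250 bases that end at the base before the RefSeq start (GRCm38.p6), 5′ to 3′ on the gene's strand. Letters in capitals match 1 of 5 short motifs on either strand: TGACNNNGC (core of the antioxidant response element of NRF2), GCGTG (core of AHR sites), AGGTCA (half-site of nuclear receptors), TTCNNNGAA (STAT5 element) and GTTAAT (half-site of the liver factor HNF1). Matches may overlap, as in Gstm5.
Gsta1, chr9:78230419-78230668 (plus strand): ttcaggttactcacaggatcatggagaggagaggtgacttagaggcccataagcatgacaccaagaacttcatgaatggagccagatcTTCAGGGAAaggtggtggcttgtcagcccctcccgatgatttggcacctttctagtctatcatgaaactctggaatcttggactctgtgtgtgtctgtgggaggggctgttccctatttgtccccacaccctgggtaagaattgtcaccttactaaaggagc
Gsta2, chr9:78347146-78347395 (minus strand): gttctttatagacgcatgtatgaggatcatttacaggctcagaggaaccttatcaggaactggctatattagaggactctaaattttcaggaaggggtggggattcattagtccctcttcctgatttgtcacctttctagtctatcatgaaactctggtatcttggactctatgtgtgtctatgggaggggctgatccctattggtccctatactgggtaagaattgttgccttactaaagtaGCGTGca
Gstm3, chr3:107969175-107969424 (minus strand): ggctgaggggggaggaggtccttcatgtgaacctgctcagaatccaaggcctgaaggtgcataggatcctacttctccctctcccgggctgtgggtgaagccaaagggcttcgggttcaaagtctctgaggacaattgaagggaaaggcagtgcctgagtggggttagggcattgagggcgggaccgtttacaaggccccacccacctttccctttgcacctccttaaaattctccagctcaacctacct
Gstm4, chr3:108044857-108045106 (minus strand): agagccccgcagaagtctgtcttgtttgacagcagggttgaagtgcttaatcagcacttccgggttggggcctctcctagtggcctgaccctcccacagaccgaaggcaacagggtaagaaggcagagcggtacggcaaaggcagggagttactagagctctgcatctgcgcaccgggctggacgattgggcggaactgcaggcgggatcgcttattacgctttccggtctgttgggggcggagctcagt
Ugt1a10, chr1:88055161-88055410 (plus strand): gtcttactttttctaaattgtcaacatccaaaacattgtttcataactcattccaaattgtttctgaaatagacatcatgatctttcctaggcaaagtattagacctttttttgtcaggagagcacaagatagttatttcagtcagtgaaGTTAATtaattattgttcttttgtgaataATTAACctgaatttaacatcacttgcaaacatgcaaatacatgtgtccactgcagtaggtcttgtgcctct
Ugt1a9, chr1:88070529-88070778 (plus strand): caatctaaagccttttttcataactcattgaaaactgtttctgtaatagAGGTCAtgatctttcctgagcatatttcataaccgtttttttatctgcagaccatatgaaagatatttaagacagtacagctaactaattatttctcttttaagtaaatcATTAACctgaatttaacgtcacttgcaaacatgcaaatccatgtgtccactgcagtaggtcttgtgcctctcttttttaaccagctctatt
Ugt1a5, chr1:88165762-88166011 (plus strand): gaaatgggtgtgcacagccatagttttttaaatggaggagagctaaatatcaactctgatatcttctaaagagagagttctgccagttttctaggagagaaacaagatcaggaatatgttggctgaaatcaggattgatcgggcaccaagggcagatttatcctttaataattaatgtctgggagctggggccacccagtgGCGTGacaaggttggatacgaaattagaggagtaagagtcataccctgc
Ugt1a1, chr1:88211709-88211958 (plus strand): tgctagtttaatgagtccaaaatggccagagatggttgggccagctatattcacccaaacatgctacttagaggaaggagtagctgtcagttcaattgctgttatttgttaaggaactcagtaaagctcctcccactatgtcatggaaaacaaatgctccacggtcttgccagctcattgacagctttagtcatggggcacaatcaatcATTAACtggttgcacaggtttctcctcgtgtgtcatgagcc
Ugt3a1, chr15:9279579-9279828 (plus strand): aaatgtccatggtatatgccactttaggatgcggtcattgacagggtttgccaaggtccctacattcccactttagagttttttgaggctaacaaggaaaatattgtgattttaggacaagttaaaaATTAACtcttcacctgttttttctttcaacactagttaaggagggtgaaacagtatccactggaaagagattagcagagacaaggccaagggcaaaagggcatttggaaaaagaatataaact

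RefSeq gave 49 such windows for 40 members, and none for Gsta4, Gstt2, Sult2a7, Ugt1a6b and Ugt3a2. RefSeq and GENCODE starts did not always match. The windows shown for Gsta2 and Ugt3a1 lie inside the GENCODE genes (78331018 to 78355788 and 9276888 to 9315032). Those of Gsta1, Gstm3, Gstm4 and Ugt1a10 overlap the beginning of theirs, so positions hold for the RefSeq start only. The windows of Gsta1 and Gsta2 had 181 of 250 bases in common (72.4%) in a pairwise alignment and shared a run of 29 bases, and those of Ugt1a9 and Ugt1a10 had 191 in common (76.4%) and a run of 32 bases. Ugt1a5 had 113 bases in common with Ugt1a9 (45.2%), and Gstm3 had 119 in common with Gstm4 (47.6%). The NRF2 core was found in 3 of the 49 windows, those of Gsta3, Gstm5 and Gstm7 (6.12%, against 10.2% of 32851 windows of all genes), and in no window shown. The AHR core was found in 18.4% of the members' windows against 28.2% of all, the STAT5 element in 6.12% against 7.02%, the nuclear receptor half-site in 22.4% against 14.0%, and the HNF1 half-site in 18.4% against 6.43%. Among the windows shown, HNF1 half-sites lay at positions -100 and -71 in Ugt1a10, -91 in Ugt1a9, -41 in Ugt1a1 and -123 in Ugt3a1. Positions are counted from the RefSeq start. Ugt1a5 held an AHR core at -49 and Ugt1a9 also a nuclear receptor half-site at -201. Gsta1 held a STAT5 element at -162 and Gsta2 an AHR core at -7, while Gstm3 and Gstm4 held none of the 5 motifs in these windows. A match is a run of letters and no measurement of binding.

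In the liver, 14 conjugating enzyme genes were higher under CR and 21 under TR, many of them Gst genes of the alpha and mu classes, and a few were lower. Rises and falls are named only where the adjusted p in the authors' deposited table was under 0.05, and every value is a log2 fold change unless another quantity is named. In CR, 14 of 44 members rose and 2 fell, and the background was 11.2% of 12636 genes called, 5.79% higher and 5.37% lower. In TR, 21 of 44 rose and 3 fell, against 18.9% of 12691 genes called, 9.35% higher and 9.54% lower. The median member stood at 0.29 under CR and 0.32 under TR, and the median of all genes at -0.0038 and -0.0005. On both diets 12 members rose and 2 (Gstm4 and Ugt3a1) fell, 2 were called under CR alone, 10 under TR alone and 18 on neither. Among all 12541 genes measured against AL on each diet, 552 were higher and 538 (4.29%) lower with both diets, 2.46% passed under CR alone, 10.1% under TR alone and 78.7% on neither. These comparisons share the AL libraries, so the values of the diets are given side by side and their likeness is not read as a result.

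**Figure D1:**
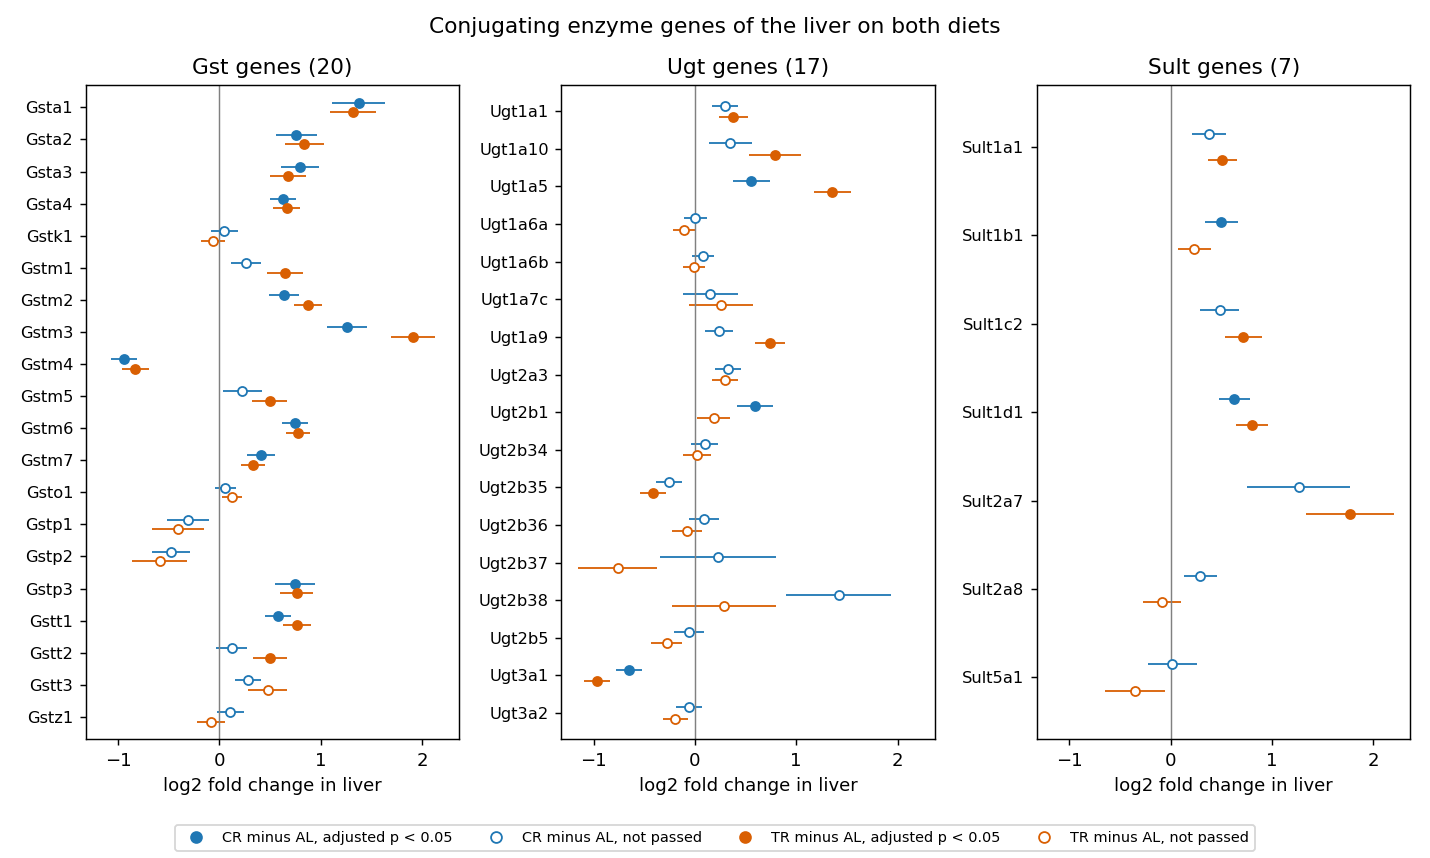
Log2 fold change against AL livers (horizontal axis) for the 20 Gst, 17 Ugt and 7 Sult genes measured against AL, CR in blue and TR in orange. Bars are 1 approximate standard error and filled points passed an adjusted p of 0.05; the Gst alpha genes lie to the right on both diets, and Gstm4 and Ugt3a1 lie to the left.

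The 4 Gst alpha genes all rose on both diets, where 5.79% (CR) and 9.35% (TR) of all genes were higher. The class acts on peroxides and aldehydes of oxidized lipids, and Gsta1 and Gsta2 are known as genes that electrophiles induce. Gsta1 (ENSMUSG00000074183, GRCm38 chromosome 9 from 78230656 to 78242684) rose by 1.38 under CR (SE 0.26, adjusted p = 6.63e-06) and by 1.32 under TR (SE 0.23, adjusted p = 4.04e-07) in the authors' deposited tables, where SE is an approximate standard error taken from the deposited fold change and test statistic. Those are ratios of 2.60 and 2.49. Gsta2 rose by 0.76 under CR (SE 0.20, adjusted p = 0.00365) and 0.84 under TR (SE 0.20, adjusted p = 0.000338) in the authors' deposited tables. Gsta3, whose gene lies apart on chromosome 1, rose by 0.80 (SE 0.19, adjusted p = 0.000757) and 0.67 (SE 0.18, adjusted p = 0.00193) in the authors' deposited tables of CR and TR. Gsta4, known for clearing hydroxynonenal, rose by 0.63 (SE 0.13, adjusted p = 4.76e-05) and 0.67 (SE 0.13, adjusted p = 1.39e-05) in the same deposited tables of the authors.

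Gsta1 cannot be cleanly separated from its copies: 90.5% of the 50-base words of its transcripts occur in another gene, and 75.7% occur in the predicted gene Gm3776. That copy had 1.16 under CR (adjusted p = 8.31e-05) and 1.27 under TR (adjusted p = 5.62e-07) according to the authors' deposited tables. For Gsta2 the shared part was 49.8%, for Gsta3 0.273%, and Gsta4 shared none. The shift was thus also seen in the alpha genes whose words are nearly all their own.

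The Gst mu genes, enzymes with broad activity toward electrophiles, stand side by side on chromosome 3, and the gene at 1 end of the cluster moved the other way. In chromosome order Gstm5, Gstm7, Gstm6, Gstm3, Gstm2, Gstm1 and Gstm4 span 107895821 to 108044894. Of the 7, 4 rose and 1 fell under CR, and 6 rose and 1 fell under TR. The shares called were 71.4% and 100%, beside 11.2% and 18.9% of all genes. Gstm3 (ENSMUSG00000004038, chromosome 3 from 107963696 to 107969283) had the largest rise of all members under TR, 1.91 (SE 0.22, adjusted p = 5.90e-16), and rose by 1.26 under CR (SE 0.20, adjusted p = 3.12e-08) in the authors' deposited tables. Gstm4 (ENSMUSG00000027890, chromosome 3 from 108040408 to 108044894) fell by 0.94 under CR (SE 0.13, adjusted p = 5.78e-11) and by 0.83 under TR (SE 0.13, adjusted p = 1.76e-08) in the authors' deposited tables. Its transcripts share no 50-base word with another gene, while 28.8% of those of Gstm3 are shared, 16.0% with the predicted gene Gm8834.

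Of the other members of the cluster, Gstm2 and Gstm1 lay between Gstm3 and Gstm4, while Gstm6, Gstm7 and Gstm5 lay beyond Gstm3. Gstm6 rose by 0.75 under CR (SE 0.13, adjusted p = 4.90e-07) and 0.77 under TR (SE 0.12, adjusted p = 3.68e-09) in the authors' deposited tables. Gstm2 rose by 0.64 (SE 0.15, adjusted p = 0.000445) and 0.87 (SE 0.14, adjusted p = 3.66e-08), and Gstm7 by 0.41 (SE 0.14, adjusted p = 0.0326) and 0.34 (SE 0.12, adjusted p = 0.0261), in the authors' deposited tables of CR and TR. Gstm1, an abundant transferase of mouse liver, had 0.26 under CR (SE 0.15, adjusted p = 0.285) and rose by 0.65 under TR (SE 0.17, adjusted p = 0.00252) in the authors' deposited tables. Gstm5 had 0.23 under CR (SE 0.19, adjusted p = 0.520) and rose by 0.50 under TR (SE 0.17, adjusted p = 0.0266) in the authors' deposited tables. Set against each other, CR minus TR was -0.39 (adjusted p = 0.238) for Gstm1 and -0.26 (adjusted p = 0.625) for Gstm5 in the authors' deposited table, so neither was called different between the diets.

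**Figure D2:**
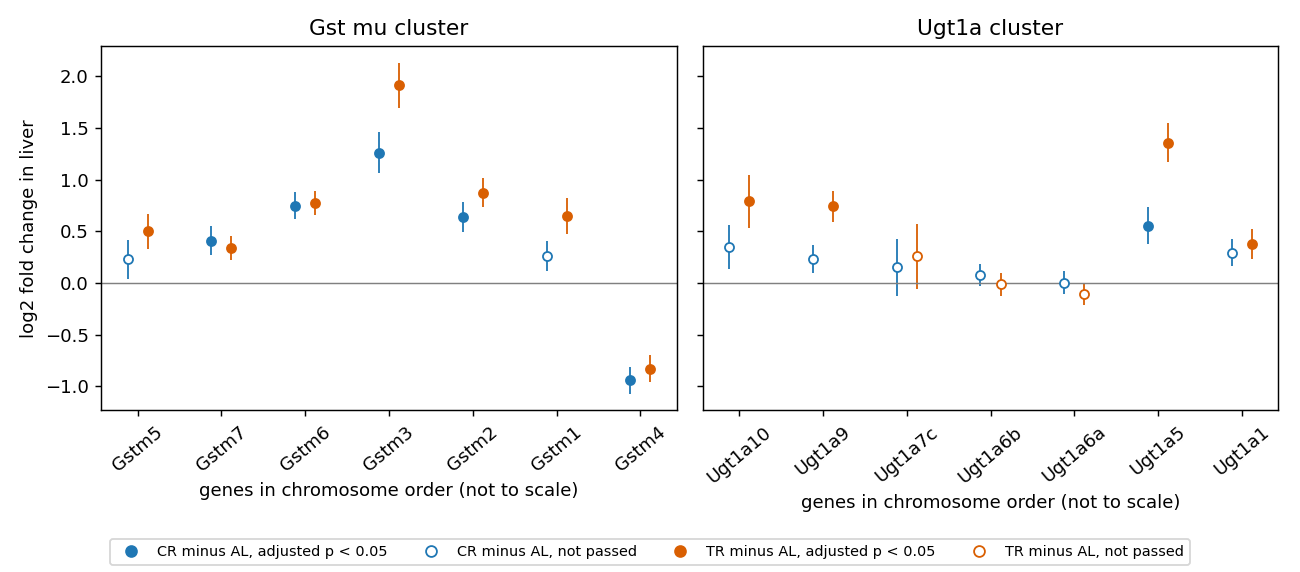
Log2 fold change in liver (vertical axis) of the genes of the Gst mu cluster (left) and the Ugt1a cluster (right) in chromosome order, CR in blue and TR in orange, with bars of 1 approximate standard error and filled points past an adjusted p of 0.05. Gstm4 at 1 end of its cluster lies below 0 on both diets, and Ugt1a10, Ugt1a9 and Ugt1a5 lie higher under TR than under CR while Ugt1a6a and Ugt1a6b lie near 0.

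In the pi class the 3 genes did not move together. Gstp3 rose by 0.75 under CR (SE 0.20, adjusted p = 0.00363) and 0.77 under TR (SE 0.16, adjusted p = 7.45e-05) in the authors' deposited tables. Gstp1 had -0.31 (adjusted p = 0.392) and -0.41 (adjusted p = 0.281), and Gstp2 had -0.48 (adjusted p = 0.0827) and -0.59 (adjusted p = 0.111), according to the authors' deposited tables of CR and TR. Gstp1 and Gstp2 share 33.7% and 54.3% of their 50-base words with other genes, mostly with each other, so reads between them may be misassigned, while Gstp3 shares none.

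Among the theta genes, which act on small halogenated molecules, Gstt1 rose by 0.58 under CR (SE 0.13, adjusted p = 0.000261) and 0.76 under TR (SE 0.14, adjusted p = 1.46e-06) in the authors' deposited tables. Gstt2 had 0.12 under CR (SE 0.15, adjusted p = 0.694) and rose by 0.50 under TR (SE 0.17, adjusted p = 0.0247), and Gstt3 had 0.28 (adjusted p = 0.159) and 0.48 (adjusted p = 0.0625), according to the authors' deposited tables. The single genes of other classes were Gstz1, which also isomerizes maleylacetoacetate in tyrosine breakdown, Gsto1, a thioltransferase, and Gstk1, found in mitochondria and peroxisomes. None of these passed the threshold, with 0.11, 0.06 and 0.05 under CR and -0.08, 0.13 and -0.06 under TR in the authors' deposited tables. In all, 10 of 20 Gst genes rose and 1 fell under CR, with a median of 0.34, and 13 rose and 1 fell under TR, with a median of 0.57. The shares called were 55% and 70%, beside 11.2% and 18.9% of all genes.

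The Ugt1 genes are read from 1 locus on chromosome 1 in which each gene has its own first exon and all 7 members end in the same 3 exons. The shared part is large: 52.1% to 79.8% of their 50-base words occur in another gene, so the value of each depends on how the authors' software divided the shared reads. Under CR 1 (14.3%) rose and under TR 4 (57.1%), beside 11.2% and 18.9% of all genes called. These counts are no test between the diets. Set directly against each other, 2 of the 7 were called, Ugt1a5 and Ugt1a9, while Ugt1a1 and Ugt1a10 were not. Ugt1a5 (ENSMUSG00000089943, chromosome 1 from 88166012 to 88218997) rose by 0.56 under CR (SE 0.18, adjusted p = 0.0265) and by 1.36 under TR (SE 0.19, adjusted p = 3.86e-11) in the authors' deposited tables, ratios of 1.47 and 2.56. Ugt1a9, a phenol glucuronidating enzyme (ENSMUSG00000090175, chromosome 1 from 88070800 to 88218997), had 0.24 under CR (SE 0.14, adjusted p = 0.296) and rose by 0.74 under TR (SE 0.15, adjusted p = 1.91e-05) in the authors' deposited tables. Ugt1a10 had 0.35 under CR (SE 0.21, adjusted p = 0.329) and rose by 0.79 under TR (SE 0.26, adjusted p = 0.0168) in the authors' deposited tables. Ugt1a1, which conjugates bilirubin, had 0.29 under CR (SE 0.13, adjusted p = 0.131) and rose by 0.38 under TR (SE 0.14, adjusted p = 0.0444) in the authors' deposited tables.

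The remaining Ugt1 genes, Ugt1a6a and Ugt1a6b, enzymes for small phenols, and Ugt1a7c, did not pass on either diet. In CR they had 0.00, 0.08 and 0.15, and under TR -0.11, -0.01 and 0.26, in the authors' deposited tables. The approximate 95% interval of Ugt1a6a under TR reached from -0.32 to 0.11, and that of Ugt1a5 from 0.99 to 1.72.

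The Ugt2 genes, whose enzymes act largely on steroids and bile acids, gave 1 call on each diet among 8 members. That is 12.5%, near or below the 11.2% (CR) and 18.9% (TR) of all genes called, so it is not read as a response of the class. Ugt2b1 rose by 0.59 under CR (SE 0.18, adjusted p = 0.0115) and had 0.19 under TR (SE 0.16, adjusted p = 0.463) in the authors' deposited tables. Ugt2b35 had -0.26 under CR (SE 0.13, adjusted p = 0.193) and fell by 0.41 under TR (SE 0.13, adjusted p = 0.00995) in the authors' deposited tables. Ugt2b34, Ugt2b36 and Ugt2b5 had 0.10, 0.09 and -0.06 under CR and 0.02, -0.08 and -0.28 under TR in the authors' deposited tables, none past the threshold. Ugt2a3 had 0.33 (adjusted p = 0.0833) and 0.30 (adjusted p = 0.0980), and Ugt2b38 had 1.42 (SE 0.51, adjusted p = 0.0515) and 0.29 (SE 0.51, adjusted p = 0.745), in the authors' deposited tables of CR and TR. Of the 50-base words of Ugt2b38, 37.4% occur in another gene, mostly Ugt2b5. Ugt2b37 had 0.23 (SE 0.57) and -0.76 (SE 0.39) in the authors' deposited tables, with log2 mean CPM (CPM is a read count scaled to library size) of 0.35 and -0.08.

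The Ugt3 pair split. Ugt3a1, which uses UDP-N-acetylglucosamine in place of UDP-glucuronate (ENSMUSG00000072664, chromosome 15 from 9276888 to 9315032), fell by 0.65 under CR (SE 0.13, adjusted p = 2.64e-05) and by 0.97 under TR (SE 0.13, adjusted p = 6.99e-12) in the authors' deposited tables. Its neighbour Ugt3a2, 9335550 to 9370955 on the same chromosome, had -0.06 (SE 0.12, adjusted p = 0.838) and -0.19 (SE 0.13) in the authors' deposited tables. Over the 17 Ugt genes 2 rose and 1 fell under CR, with a median of 0.15, and 4 rose and 2 fell under TR, with a median of 0.02. The share called was 17.6% under CR and 35.3% under TR, beside 11.2% and 18.9% of all genes.

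The Sult genes that passed all rose. Sult1d1, which sulfates dopamine and related amines (ENSMUSG00000029273, chromosome 5 from 87554645 to 87569027), rose by 0.63 under CR (SE 0.15, adjusted p = 0.000779) and 0.80 under TR (SE 0.16, adjusted p = 1.56e-05) in the authors' deposited tables. Its neighbour Sult1b1, which acts on thyroid hormone, rose by 0.50 under CR (SE 0.16, adjusted p = 0.0256) and had 0.24 under TR (SE 0.16, adjusted p = 0.339) in the authors' deposited tables. Sult1a1, a phenol sulfotransferase, had 0.38 under CR (SE 0.16, adjusted p = 0.123) and rose by 0.51 under TR (SE 0.14, adjusted p = 0.00434) in the authors' deposited tables. Sult1c2 had 0.48 under CR (SE 0.20, adjusted p = 0.0944) and rose by 0.72 under TR (SE 0.18, adjusted p = 0.00119) in the authors' deposited tables.

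The Sult2a group holds hydroxysteroid sulfotransferases. Sult2a7 had 1.26 under CR (SE 0.50, adjusted p = 0.0875) and rose by 1.77 under TR (SE 0.43, adjusted p = 0.000755) in the authors' deposited tables, with wide approximate intervals from 0.27 to 2.25 and from 0.92 to 2.62. Sult2a8, known as a bile acid sulfotransferase of mouse liver, had 0.29 (adjusted p = 0.258) and -0.09 (adjusted p = 0.797), and Sult5a1 had 0.02 and -0.35, in the authors' deposited tables of CR and TR. In all, 2 of 7 Sult genes (28.6%) rose under CR and 4 (57.1%) under TR, where 5.79% and 9.35% of all genes were higher. By the authors' edgeR test 0 fell, with 0 lower at an unadjusted p under 0.05 on either diet.

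Several of these calls were close to the threshold. With the test statistics referred to a t distribution with 10 degrees of freedom, 8 of the 14 rises under CR passed, Gsta2, Gstm7, Gstp3, Sult1b1, Ugt1a5 and Ugt2b1 being lost, and under TR the calls of Gstm1, Gstm5, Gstm7, Gstt2, Sult1a1, Ugt1a1, Ugt1a10 and Ugt2b35 were lost.

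Set directly against each other, CR and TR livers differed in Ugt1a5 and Ugt1a9 among the 45 members, both lower under CR, where 0.469% of 12593 genes were called, 0.310% lower and 0.159% higher. Ugt1a5 stood at -0.80 in CR minus TR (SE 0.16, adjusted p = 0.00121), with an interval from -1.12 to -0.48, in the authors' deposited table. Ugt1a9 stood at -0.50 (SE 0.13, adjusted p = 0.0293), with an interval from -0.76 to -0.25, in the same deposited table of the authors. By the authors' edgeR test 0 members were higher under CR, while at an unadjusted p under 0.05 there were 4 higher and 5 lower. The difference of Gstm3, -0.65 with an interval from -1.17 to -0.13, did not pass (adjusted p = 0.301) according to the authors' deposited table. For 22 of 45 members (48.9%) the interval lay within 0.5 of 0 and for 39 (86.7%) within 1, where 62.7% and 93.1% of all genes did. Gsta4 had -0.03 with an interval from -0.28 to 0.21, and Gstm6 -0.02 with -0.29 to 0.25, in the authors' deposited table. Sult1e1, which inactivates estrogens, was measured only here, at 1.58 with an interval from -0.65 to 3.82 and a log2 mean CPM of -0.58 in the authors' deposited table. With the t distribution neither Ugt1a5 nor Ugt1a9 passed, and in the transcript table Ugt1a5 passed and Ugt1a9 did not.

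**Figure D3:**
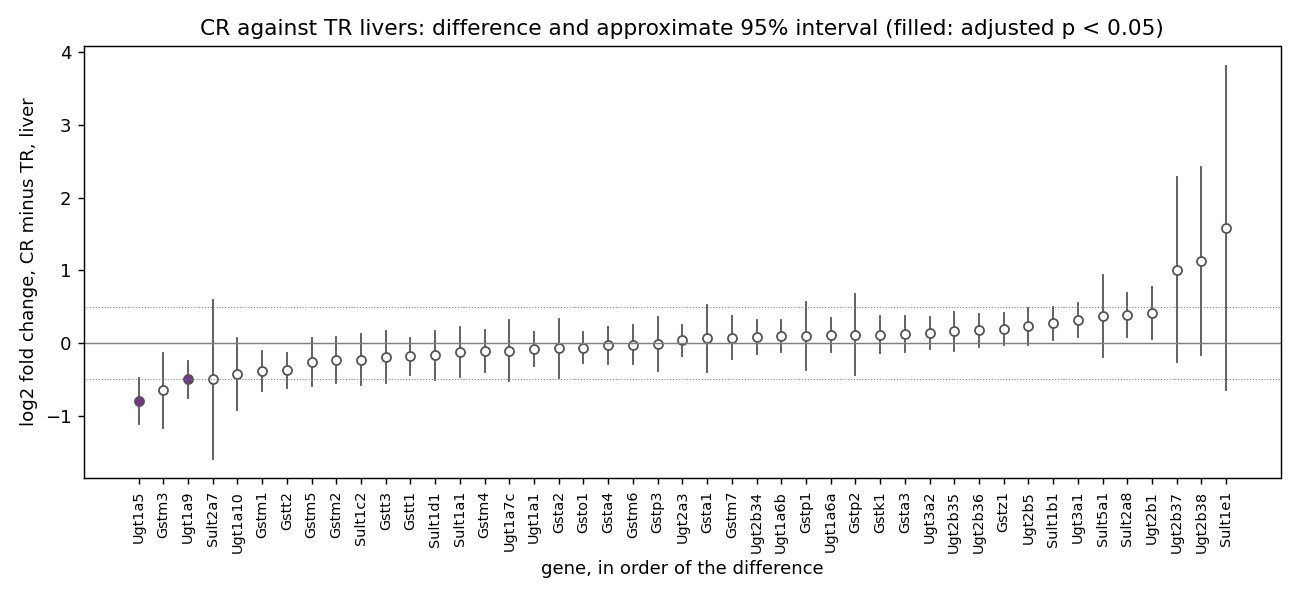
CR minus TR in liver (vertical axis, log2) for the 45 members in order of the difference, with approximate 95% intervals, filled where the adjusted p was under 0.05 and dotted lines at 0.5 and -0.5. Ugt1a5 and Ugt1a9 at the left are the called genes, and the wide intervals at the right belong to Ugt2b37, Ugt2b38 and Sult1e1.

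The transcript tables gave the same direction for the most abundant transcript of every called member, 16 of 16 under CR and 24 of 24 under TR. Gene and transcript values come from the same libraries, so this likeness is no separate support. Fewer transcripts passed: 15 of 100 under CR, from 12 genes, and 20 of 101 under TR, from 17 genes, against 2.66% and 3.94% of all transcripts. In CR minus TR, 1 of 101 passed, Ugt1a5-201 at -0.81 (SE 0.20, adjusted p = 0.0201) in the authors' deposited table, where 0.323% of all transcripts did. Gstm4-201 fell by 1.02 under CR (adjusted p = 4.98e-07) and by 0.85 under TR (adjusted p = 7.82e-05) according to the authors' deposited transcript tables. Gstm3-201 rose by 1.25 (adjusted p = 3.89e-06) and 1.91 (adjusted p = 4.32e-12) according to the authors' deposited transcript tables of CR and TR. Gsta3 rose in 3 transcripts, by 0.78, 0.80 and 0.80 under CR and by 0.65, 0.71 and 0.72 under TR, in the authors' deposited transcript tables. Gstz1 was called only at this level: its transcript Gstz1-203 fell by 1.16 under CR (SE 0.35, adjusted p = 0.0411), while Gstz1-201, the most abundant, had 0.14, in the authors' deposited transcript table.

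Genes for the supply of the sugar and sulfate donors were called in both directions. Of 12 measured, 2 rose and 1 fell under CR, which is 25% beside the 11.2% of all genes, and 1 rose and 1 fell under TR, which is 16.7% beside 18.9%, with medians of -0.03 and -0.13. Ugdh, which oxidizes UDP-glucose to UDP-glucuronate, fell by 0.80 under CR (adjusted p = 8.01e-09) and 0.83 under TR (adjusted p = 2.09e-09) according to the authors' deposited tables. Papss2, which makes PAPS, rose by 0.72 (adjusted p = 2.65e-05) and 0.80 (adjusted p = 6.36e-05) according to the authors' deposited tables of CR and TR. Ugp2, which makes UDP-glucose, rose by 0.52 under CR (adjusted p = 0.00369) and had 0.36 under TR (adjusted p = 0.0699) according to the authors' deposited tables. Of 15 genes of glutathione supply and turnover, 1 rose and 4 fell under CR and 2 rose and 4 fell under TR, with medians of -0.19 and -0.10 and shares called of 33.3% and 40%. Gsr, glutathione reductase, fell by 0.49 and 0.53, and Cbs, which leads homocysteine toward cysteine, fell by 0.56 and 0.61, in the authors' deposited tables of CR and TR. Nat8, which acetylates cysteine conjugates, rose by 1.41 and 0.79 in the authors' deposited tables.

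Of 15 measured genes for methyl, acetyl, glycine and taurine conjugation, 6 (40%) rose on each diet and 0 fell by the authors' edgeR test, and at an unadjusted p under 0.05 there were 0 lower under CR and 1 under TR. Inmt rose by 1.20 and 1.30, and Hnmt by 0.81 and 0.75, both methyltransferases of amines, in the authors' deposited tables of CR and TR. Slc27a5, which activates bile acids, rose by 0.55 and 0.60 in the authors' deposited tables. Among 4 membrane-bound glutathione transferases and relatives, Mgst3 rose under TR by 0.74 (adjusted p = 0.000126) and had 0.32 under CR in the authors' deposited tables. Of 9 hydrolases, 2 rose and 3 fell under CR and 3 rose and 3 fell under TR, shares of 55.6% and 66.7%. Ces1g rose by 1.11 and 1.11, and Arsa, an arylsulfatase, fell by 0.83 and 0.93, in the authors' deposited tables. Of 18 transporters, 2 rose and 1 fell under CR and 2 rose and 2 fell under TR, shares of 16.7% and 22.2% that lie near the 11.2% and 18.9% of all genes. Slc22a7, an organic anion carrier, rose by 2.21 and 1.90, and Abcb4, the phospholipid exporter of bile, fell by 0.64 and 0.60, in the authors' deposited tables.

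Genes under the known regulators moved in both directions or in part. Of 16 NRF2 targets outside the members, 3 rose and 4 fell under CR and 2 rose and 2 fell under TR, shares of 43.8% and 25%. Srxn1, a classical NRF2 target, fell by 0.88 and 0.74, and Tkt, of the pentose phosphate pathway, rose by 0.60 and 0.78, in the authors' deposited tables of CR and TR. Of CAR and PXR targets, 3 of 11 (27.3%) rose under CR and 5 of 12 (41.7%) under TR, with 0 lower by the authors' edgeR test and 0 lower at an unadjusted p under 0.05 on either diet. Cyp2b10, a standard readout of CAR, rose by 1.30 (adjusted p = 0.000498) and 2.04 (adjusted p = 8.33e-06) according to the authors' deposited tables of CR and TR. Among 4 AHR targets Cyp1a2 rose by 1.11 and 1.19, and Nqo1 fell by 0.52 under CR (adjusted p = 0.0483), according to the authors' deposited tables. Of 14 regulators, 1 (7.14%) rose on each diet, Esr1 by 0.39 under CR and Arnt by 0.42 under TR, in the authors' deposited tables.

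Sex-biased genes and markers of other cells moved in the same livers. Of 20 male-biased genes 3 rose and 6 fell under CR and 12 fell under TR, and of female-biased genes 6 of 11 rose and 1 fell under CR and 10 of 14 rose under TR. The medians were -0.17 and -1.18 for the male-biased list and 0.74 and 1.40 for the female-biased list. The lists were chosen with earlier results known and hold no member, so whether members are sex-biased cannot be read from them. Hepatocyte markers had medians of 0.18 under CR and 0.15 under TR, with 1 and 2 of 12 called, all higher. Of cholangiocyte markers, 2 of 5 rose under CR and 2 of 4 under TR, with medians of 0.74 and 0.82, and of Kupffer cell and macrophage markers none was called under CR and 2 of 10 fell under TR. Of stellate cell and fibroblast markers 2 of 8, Col1a1 and Col3a1, rose on both diets, and no skeletal muscle marker was in the liver tables. The part of these shifts in the members' values was not tested.

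In iWAT, 39 of the members were measured in at least 1 comparison, and their levels fell into separate ranges. Members were called liver-restricted, after the values were seen, where their log2 mean CPM in CR minus AL was at least 5 lower in iWAT than in liver or they were in that liver table and not in that iWAT table. This gave 16 liver-restricted members, and the gap of those measured ran from 6.78 (Gsta2) to 8.34 (Sult2a8), while the nearest member outside, Gsta3, stood at 4.18. The tissues were normalized separately, so a gap compares levels set on different scales. Of the 16, 5 (Gstm3, Sult1b1, Sult1d1, Ugt1a9 and Ugt3a1) have iWAT values in TR minus AL alone, and a gene that enters a table only through the group where it is high has its sign fixed in advance. The 11 in both tables ran from -4.18 to -1.08 in CR minus AL and from 1.54 to 2.96 in TR minus AL, a description of the genes that passed the authors' filter.

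The 12 measured hepatocyte markers had iWAT medians of -3.75 in CR minus AL, 2.10 in TR minus AL and -5.87 in CR minus TR, and ran from -0.78 to 2.92 in TR minus AL, with 9 called lower in CR minus AL, 0 called in TR minus AL and 11 called lower in CR minus TR. At an unadjusted p under 0.05, 1 was higher and 1 lower in TR minus AL. Alb, albumin, had -1.96, 2.92 and -4.91 in the authors' deposited tables of those comparisons. Among the liver-restricted members Ugt2b5 had -4.14 (SE 1.28, adjusted p = 0.0232), 1.98 (SE 1.66, adjusted p = 0.503) and -6.09 (SE 1.76, adjusted p = 0.0569) in the authors' deposited tables. Hp, haptoglobin, whose level in iWAT was near that in liver, stood apart from the other markers with -0.78 in TR minus AL and -0.29 in CR minus TR, per the authors' deposited tables. The liver-restricted members in both tables had the signs of the hepatocyte markers other than Hp, with Gsta2 (-1.08) and Ugt1a5 (-2.16) nearer to 0 in CR minus AL than the rest, and the part of hepatocyte RNA in their values was not tested. How many libraries carry it cannot be read from comparisons of groups.

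**Figure D4:**
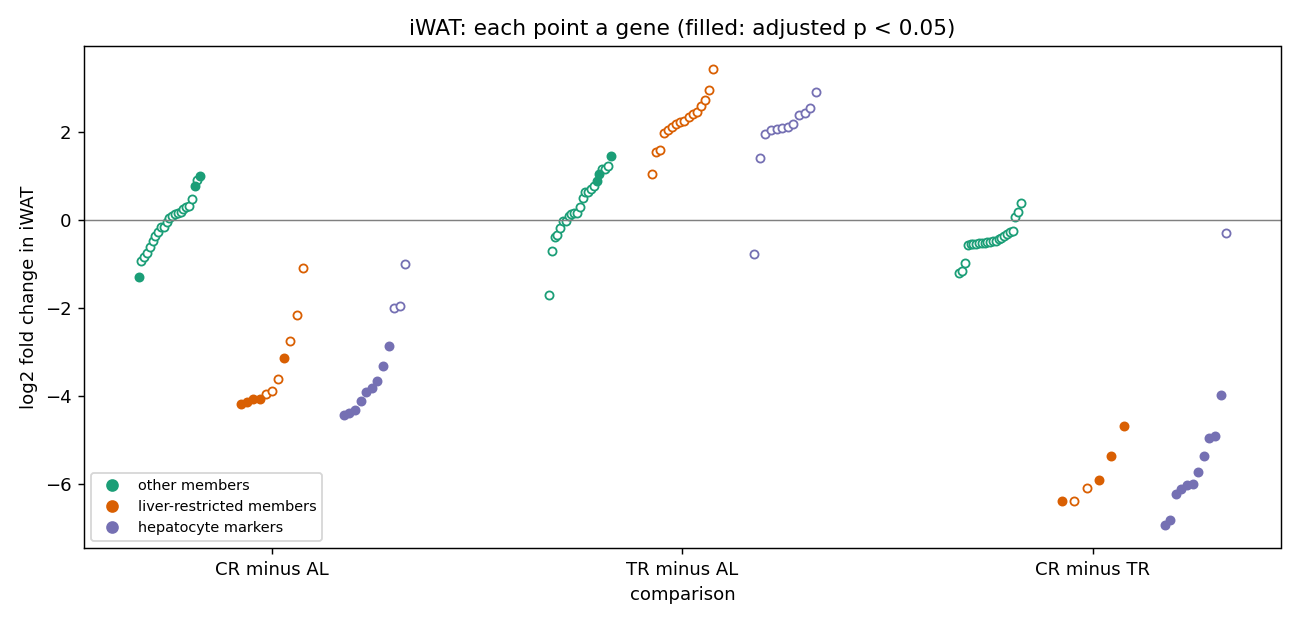
Log2 fold change in iWAT (vertical axis) in each comparison for other members (green), liver-restricted members (orange) and hepatocyte markers (purple), with 1 point per gene and filled points past an adjusted p of 0.05. Each comparison holds the genes that passed its own filter, 11, 16 and 6 of the liver-restricted members, and 5 of the 16 have a value in TR minus AL alone.

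By the authors' test, 2 of 34 members rose and 6 fell in iWAT under CR, where 7.30% of 15295 genes were called, 3.52% higher and 3.78% lower. Of the 6, 5 were liver-restricted: Sult2a8, Ugt1a1, Ugt2b36, Ugt2b5 and Ugt3a2, with values from -4.18 to -3.14 in the authors' deposited table. In TR, 3 of 39 rose, and none fell by the authors' edgeR test with 1 lower at an unadjusted p under 0.05. The share called was 7.69%, below the 10% of 15356 genes called (4.76% higher and 5.24% lower), so it is not read as a response of the members. In CR minus TR, 4 of 29 were lower (Ugt2a3, Ugt2b1, Ugt2b34 and Ugt3a2, all liver-restricted, with values from -6.40 to -4.69 in the authors' deposited table), and none was higher at an unadjusted p under 0.05 either, where 0.918% of 14699 genes were called, 0.857% lower and 0.0612% higher. Of the 16 liver-restricted members, 6 were in that comparison, all below 0. Where such a member entered only through the group where it was high, its sign was fixed in advance. The same may hold in CR minus AL, so the calls of liver-restricted members are a description and no support. With the t distribution, no member passed in iWAT in CR minus AL or CR minus TR.

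The 23 other members had iWAT levels closer to those of liver, and Sult1e1 is among them without a liver level against AL. Gsta4 rose by 1.01 under CR (SE 0.26, adjusted p = 0.00449) and 1.45 under TR (SE 0.28, adjusted p = 1.62e-05) in the authors' deposited iWAT tables, ratios of 2.01 and 2.74. Gstm5, whose log2 mean CPM was higher in iWAT than in liver (a gap of -2.63), rose by 0.77 (SE 0.25, adjusted p = 0.0369) and 1.05 (SE 0.31, adjusted p = 0.0133) in the authors' deposited iWAT tables. Gstz1 had 0.48 under CR (adjusted p = 0.473) and rose by 0.88 under TR (SE 0.29, adjusted p = 0.0299) in the authors' deposited iWAT tables. The TR calls of Gstm5 and Gstz1 were lost with the t distribution, at an adjusted p under 0.01 and in the transcript table, where Gsta4 kept its call. Sult1e1 fell by 1.28 under CR (SE 0.41, adjusted p = 0.0319) and had -1.70 under TR (SE 0.65, adjusted p = 0.0745) in the authors' deposited iWAT tables.

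Of the members with high iWAT levels, Gstz1 had a log2 mean CPM of 9.62, Gstm1 of 8.64, Sult1a1 of 7.81 and Gstm2 of 7.37 in the authors' deposited CR minus AL table. Gstm1 had -0.62 under CR (adjusted p = 0.229) and -0.18 under TR (adjusted p = 0.772), and Gstm2, which rose in liver, had -0.15 and 0.29, in the authors' deposited iWAT tables. In CR minus TR, 20 of these 23 members lay below 0 with a median of -0.49, where the median of all genes was 0.01, and 0 passed the authors' edgeR test. Skeletal muscle markers had a median of 1.17 for CR against AL and -2.89 for TR against AL, with 4 of 10 lower under TR, and the adipocyte markers -0.15 and 0.08. Their part in the members' values was not tested.

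The diet effects in the tissues were compared for members measured in both, with an approximate z test on the difference of the deposited fold changes. In CR, 9 of 33 members differed between iWAT and liver, against 6.73% of 12012 genes. Under TR 2 of 38 differed, a share below the 7.81% of 12201 genes, so that count is not read as a result about the members. For Gstm4 the effect was 1.26 higher in iWAT than in liver under CR (SE 0.32, adjusted p = 0.00363) and 1.61 higher under TR (SE 0.35, adjusted p = 0.000322). In iWAT it had 0.31 under CR (adjusted p = 0.584) and 0.78 under TR (adjusted p = 0.111) according to the authors' deposited tables, beside its fall in liver. Gstt1 differed under CR by -0.95 (SE 0.26, adjusted p = 0.00915), and Gstz1 under TR by 0.97 (SE 0.32, adjusted p = 0.0378). The other 7 under CR were liver-restricted members with differences from -4.47 to -3.08, and the authors' filter may have fixed the sign of their iWAT values. With a correlation of -0.3 between tissues 4 members differed under CR and 1 under TR, and with 0.3 there were 13 and 4.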

How the data were processed

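RNA from flash-frozen liver and iWAT was sequenced in 36 libraries, 6 for each tissue and diet, per the labels. The submitters' processing notes name bcl2fastq 2.20, STAR 2.5.3a, RSEM and the build GRCm38.p5. No source used here gives the annotation release. Per the file headers, the authors fitted edgeR generalized linear models to each pair of diets in each tissue. The deposited tables, 6 of genes and 6 of transcripts, give the log2 fold change and log2 mean CPM, the likelihood ratio statistic (a score), the p-value and the false discovery rate. They hold no value per library, so depth is unknown, no interval from counts can be given, and groups cannot be refitted. The titles give each library of a group its own number, read here as that of an animal.

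A gene was called where the authors' deposited adjusted p, from their edgeR test, was under 0.05. The approximate SE is the size of the deposited log2 fold change divided by the square root of the likelihood ratio, and 95% intervals rest on it. Diet effects in the tissues were compared by a z test with Benjamini-Hochberg adjustment over all genes in both tables; the 36 libraries carry 20 combinations of diet and animal number, so tissues share mice, and correlations of 0.3 and -0.3 were tried. That script was tested on simulated data. Other alternatives were an adjusted p under 0.01, a t distribution with 10 degrees of freedom, the transcript tables, a log2 mean CPM of at least 1 and centring on the median gene. All members are named. Genes of other lists, at most 4 for each, were named from those with the smallest adjusted p against AL in liver. A few were singled out after their values were seen, Alb and Hp among them. Members and lists were chosen with earlier results of these data known, and the liver-restricted class, the motifs and the promoters shown were chosen after the values were seen. Python 3.11.15, numpy 2.4.6, pandas 2.3.3, scipy 1.17.1 and matplotlib 3.10.9 were used. Gene positions and shared words come from GENCODE M21.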

Additional observations from a re-analysis of the deposited data

Results flagged for a closer look

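Some members differed between the restricted diets. In liver, CR minus TR was -0.80 for Ugt1a5 and -0.50 for Ugt1a9. In iWAT, CR minus TR was -6.40 for Ugt2a3, -5.37 for Ugt2b1, -5.93 for Ugt2b34 and -4.69 for Ugt3a2. All are liver-restricted members, whose signs in iWAT the authors' filter may have fixed.

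Other members differed in their diet effect between the tissues. The CR effect in iWAT minus that in liver was 1.26 for Gstm4 and -0.95 for Gstt1. It was -4.36 for Sult2a8, -4.47 for Ugt1a1, -4.28 for Ugt2a3, -3.34 for Ugt2b1, -4.16 for Ugt2b36, -4.08 for Ugt2b5 and -3.08 for Ugt3a2, again liver-restricted members with that limit. The TR effect in iWAT minus that in liver was 1.61 for Gstm4 and 0.97 for Gstz1. The share of members called there was below that of all genes.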

How the results depend on the processing

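Of 175 values followed one by one, 57 were called and 0 of these changed sign under the alternatives run for them. Among the values not called, 3 did: Sult2a8 in liver TR minus AL (0.30 in the transcript table), Gsta1 in liver CR minus TR (-0.0095 in the transcript table) and Gstt1 in iWAT TR minus AL (0.02 after centring). Of the alternatives, only centring and the transcript tables can alter a sign. Both rest on the same libraries, so the lack of sign changes is no test of how firm the calls are. With the t distribution, 8 members were higher in liver in CR, 0 lower in liver CR minus TR, 0 higher and 0 lower in iWAT in CR, 1 higher in iWAT in TR and 0 lower in iWAT CR minus TR. In the transcript tables the counts were 9, 1, 1 and 0, 1, and 1 in the same order. At an adjusted p under 0.01, 1 was lower in liver CR minus TR, 1 higher and 0 lower in iWAT in CR, 1 higher in iWAT in TR and 0 lower in iWAT CR minus TR. The tissue difference held for 4 members in CR and 1 in TR with a correlation of -0.3, and for 4 in TR with 0.3. The level filter and centring moved no count by over 1.5 times. No paired analysis was possible because the files hold comparisons and no values per library; for the same reason no library was left out in turn, and no other normalization was run.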
